A study of Mus musculus with 2 samples.

Results

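The OG2 cells are one of the osteogenic clusters that the study's authors drew in a single-cell RNA-seq atlas of the embryonic mouse coronal suture. The study names *Lef1* and *Inhba* as prominent markers of OG2. The OG2 members were taken from the cluster column of the authors' cell table and matched to the deposited count matrices by barcode. This gave 1010 OG2 cells of 12165 labelled cells. There were 488 OG2 cells of 5335 labelled cells at E15.5 (9.15%, exact 95% Clopper-Pearson interval 8.39 to 9.95) and 522 of 6830 at E17.5 (7.64%, 7.02 to 8.30). OG2 made up 37.9% of the 1287 cells of the 6 osteogenic clusters at E15.5 and 15.2% of the 3425 at E17.5. In both libraries the animals were wildtype embryos of the C57/BL6 strain, and the tissue was coronal suture. The E15.5 library came from 10 pooled sutures released with collagenase II and dispase and cleared of dead cells, and the E17.5 library from 16 sutures of 2 litters in 3 batches released with collagenase IV and sorted by FACS. Each stage was deposited as 1 matrix, called a library here, so no test was possible between stages and intervals cover counting error only. The E17.5 barcodes carry 3 suffixes, which the labels do not tie to the 3 batches or the litters, and values by suffix are given below for a few genes. Stage, embryos, enzyme, sorting and counting software all changed from one library to the other and cannot be told apart.

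The coronal suture is the fibrous joint between the frontal and parietal bones, and new bone is laid down at its edges by osteoblasts that arise from mesenchymal progenitors. LEF1 and TCF7 are DNA-binding partners of β-catenin, through which canonical Wnt signals switch on target genes. *Inhba* encodes the inhibin βA subunit, which pairs with itself to form activin A, a ligand of the TGF-β family that follistatin binds and blocks. Commitment to the osteoblast lineage is marked by the transcription factors *Runx2*, *Dlx5* and *Sp7* and then by *Alpl*, the alkaline phosphatase needed for mineral deposition.

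Levels below are counts of unique molecular identifiers (UMIs) summed over the cells of a group and scaled to the total UMIs of that group (CPM, counts per 1e+06). The OG2 cells held 4102414 UMIs at E15.5 (median 7723 per cell, 2563.5 genes) and 7929797 at E17.5 (median 15134, 3630.5 genes). A gene was called higher or lower where OG2 and the compared cells differed at least 2-fold with at least 50 UMIs over both groups scaled to equal size. At E15.5 the deposited matrix held 0.746 of the UMIs that the authors' table gives for each OG2 cell (0.739 for the other labelled cells), and at E17.5 522 of 522 totals were equal. The E17.5 cells shared between 11 and 42 barcodes per suffix with the 8210 E15.5 cells, and 0 shared barcodes were OG2 in both. Cells with the highest doublet scores were 5.33% of OG2 at E15.5 and 12%, 5% and 6.28% in suffixes 1, 2 and 3 of E17.5. The clusters were made by the authors from these same cells, so every comparison with other clusters describes OG2 and tests nothing.

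The promoters of *Hmgcs1*, *Mvd* and *Sp5* are shown first, because the genes they belong to carry the shared and the stage-limited parts of the OG2 profile described further on. *Hmgcs1* and *Mvd* encode enzymes of sterol synthesis, which stood high in OG2 of both libraries. *Sp5* is a direct Wnt target that stood high at E15.5 only among these 2 libraries. Its level outside OG2 was also far lower at E17.5. Each line holds the 250 bases before the RefSeq start in the GRCm38.p6 build, 5′ to 3′ on the gene's strand. In the first 2, capitals mark CCAAT, the core of the NF-Y site, on either strand (ATTGG), and TCACNCCAC, a core of the sterol response element read by SREBP. In the third, capitals mark TCAAAG, a core of the TCF/LEF site, on either strand (CTTTGA).
Hmgcs1, chr13:119690101-119690350, + strand: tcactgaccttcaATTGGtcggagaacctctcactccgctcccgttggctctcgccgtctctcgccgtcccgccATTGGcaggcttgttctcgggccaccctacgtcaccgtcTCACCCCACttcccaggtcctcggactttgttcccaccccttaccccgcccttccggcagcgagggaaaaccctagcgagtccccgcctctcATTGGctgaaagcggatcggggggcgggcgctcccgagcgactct
Mvd, chr8:122443423-122443672, - strand: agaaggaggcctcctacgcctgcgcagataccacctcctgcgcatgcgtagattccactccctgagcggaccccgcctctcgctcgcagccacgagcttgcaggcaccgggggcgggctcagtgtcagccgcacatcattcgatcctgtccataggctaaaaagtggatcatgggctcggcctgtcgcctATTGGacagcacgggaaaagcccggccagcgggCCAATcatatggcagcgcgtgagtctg
Sp5, chr2:70474673-70474922, + strand: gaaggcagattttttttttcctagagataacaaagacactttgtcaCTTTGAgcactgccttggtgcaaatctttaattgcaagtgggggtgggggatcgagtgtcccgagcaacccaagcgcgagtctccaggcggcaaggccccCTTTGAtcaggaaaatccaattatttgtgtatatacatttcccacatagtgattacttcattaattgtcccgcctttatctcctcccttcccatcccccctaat

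In these windows *Hmgcs1* had CCAAT 3 times and TCACNCCAC 1 time, *Mvd* had CCAAT 2 times, and *Sp5* had TCAAAG 2 times, 204 and 104 bases before the start. Of 32851 promoter windows of this length, 33.8% held CCAAT, 1.05% held TCACNCCAC and 13.8% held TCAAAG. The CCAAT core was in 14 of 18 windows of the sterol synthesis genes (15 of 18 genes had a window), and TCACNCCAC in 1 of 18. TCAAAG was in 3 of 15 windows of the Wnt response genes, those of *Dkk1*, *Lef1* and *Sp5* (10 of 17 genes had a window). A match of letters is a description and not evidence of binding.

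The label genes separated OG2 clearly from the other cells at E15.5 and weakly at E17.5. *Lef1* (chr3:131110471-131224356 in mm10, + strand) stood at 73.4 CPM in OG2 at E15.5 (exact 95% Poisson interval 65.3 to 82.1) against 8.79 in the other labelled cells, 8.35-fold (7.16 to 9.73). At E17.5 *Lef1* stood at 11.6 CPM in OG2 (9.35 to 14.2) against 5.93, 1.96-fold (1.55 to 2.45). *Inhba* (chr13:16011851-16031621, + strand) stood at 79.0 CPM in OG2 against 11.3 at E15.5, 7.02-fold (6.08 to 8.08). At E17.5 *Inhba* stood at 14.1 CPM against 9.20, 1.53-fold (1.25 to 1.87). Against the other 5 osteogenic clusters *Lef1* was 2.1-fold higher in the E15.5 library and 1.35-fold in the E17.5 library, and *Inhba* 2.76-fold and 1.24-fold. At E17.5, over all suffixes together, *Lef1* and *Inhba* thus differed by less than 2-fold between OG2 and the cells compared. *Lef1* stood at 22.4, 8.67 and 10.96 CPM in OG2 of suffixes 1, 2 and 3 against 7.28, 5.77 and 5.54 in the other labelled cells. *Inhba* stood at 14.6, 17.3 and 10.3 CPM against 8.46, 8.91 and 9.76, so that OG2 and the other cells differed by 1.06-fold in suffix 3 (0.717 to 1.51).

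Among the 15 labelled clusters, OG2 ranked first for *Lef1* and for *Inhba* at E15.5 only. At E15.5 *Lef1* followed at 56.8 CPM in PO1 and 55.8 in PO2, the proliferating osteogenic clusters, and at 50.4 in the osteogenic cluster OG1. *Inhba* followed at 64.0 CPM in PO2, 45.2 in OG1 and 38.2 in PO1. At E17.5 *Lef1* was at 13.6 CPM in PO2, 11.6 in OG2, 11.4 in the ectocranial cluster EC4, 11.1 in OG1 and 10.5 in PO1, levels closer together than the counting interval of OG2. *Inhba* was at 17.3 CPM in PO1 and 16.1 in OG1, both above the 14.1 of OG2. *Crabp1*, which encodes a cytosolic retinoic acid-binding protein, ranked first in OG2 at E15.5 (1742 CPM, with PO2 at 1508 and PO1 at 1297) and second at E17.5 (88.5 CPM, after 119 in the ligament-like cluster LIG).

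**Figure D1:**
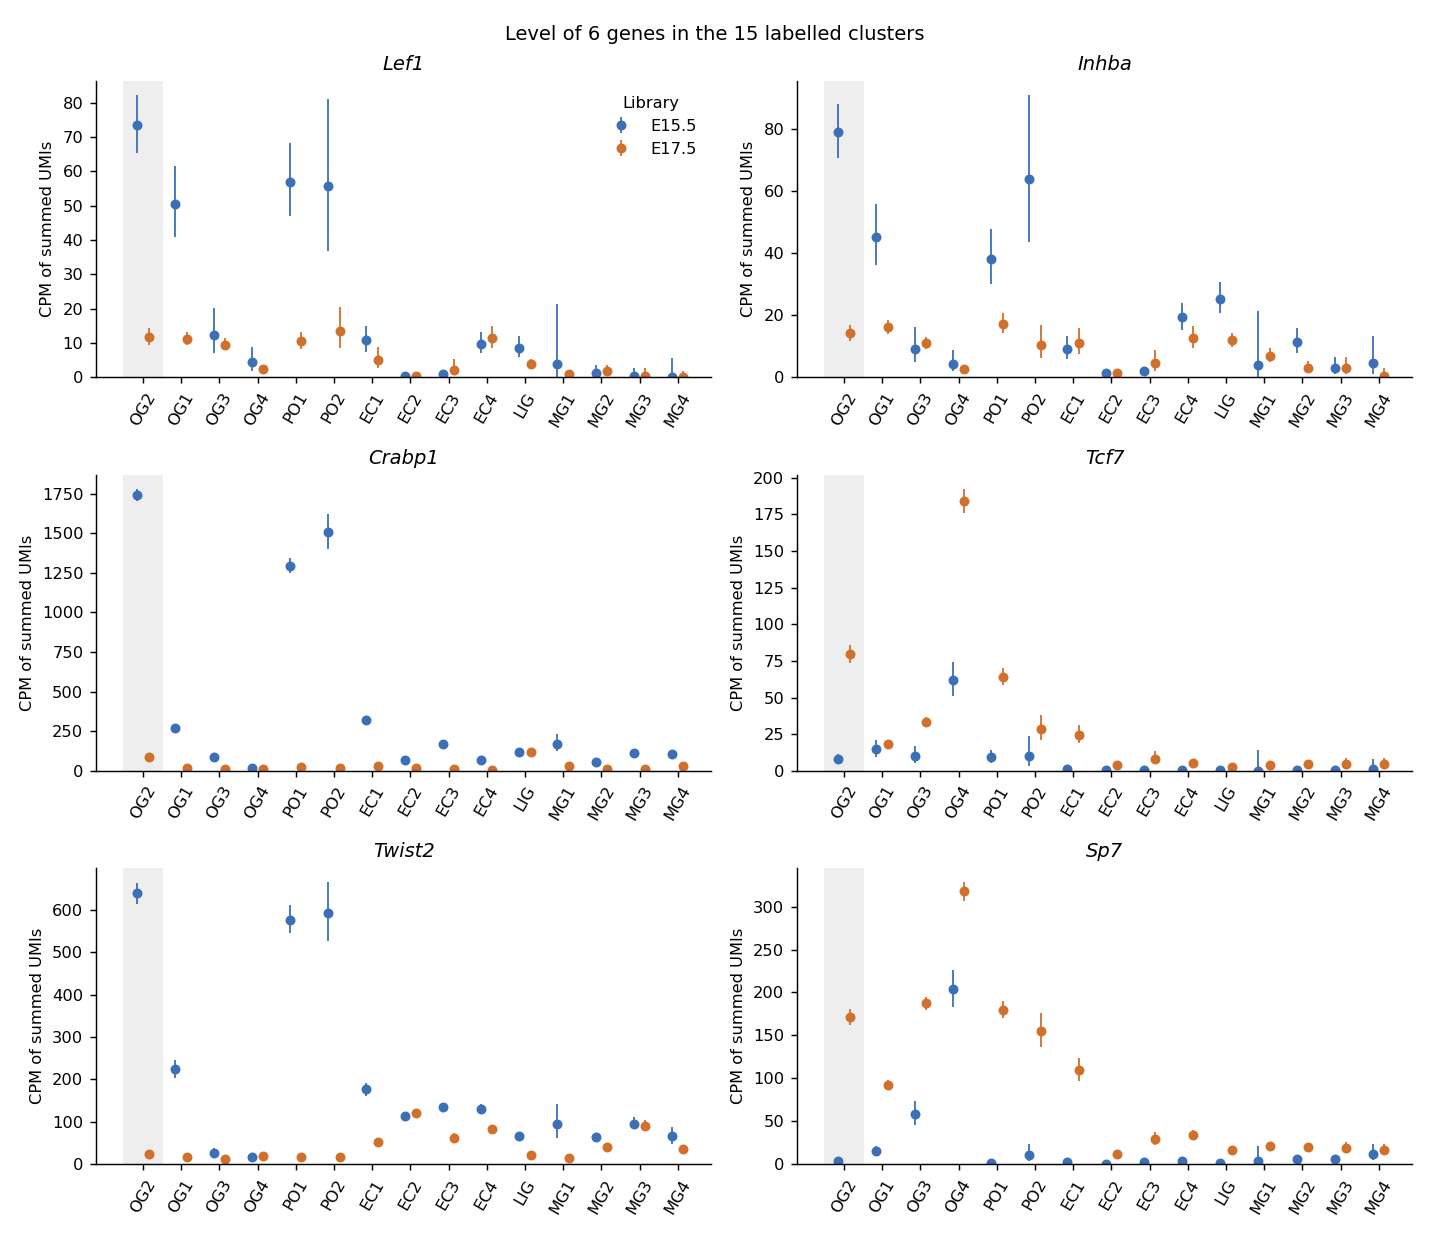
Levels of 6 genes (CPM of summed UMIs, vertical axes) in each of the 15 labelled clusters (horizontal axes) of the E15.5 and E17.5 libraries, with exact 95% Poisson intervals as bars. For *Lef1* the OG2 point at E15.5 (73.4 CPM) is the highest of its library, while the OG2 point at E17.5 (11.6 CPM) lies among those of PO1, PO2, OG1 and EC4.

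Single cells showed the same difference between the libraries. Every cell was thinned to 3000 UMIs, which left out 4 E15.5 OG2 cells and 0 E17.5 OG2 cells. A *Lef1* UMI was then found in 21.7% of 484 OG2 cells at E15.5 (18.1 to 25.6), against 2.34% of the other labelled cells and 0.862% of macrophages, here the unlabelled cells with at least 5 UMIs of *C1qa*, *C1qb* and *C1qc*. At E17.5 the *Lef1* share was 3.45% of 522 OG2 cells (2.06 to 5.40), against 1.82% of the other labelled cells and 0 of 620 macrophages (interval up to 0.593%). The macrophages had a median of 9906 UMIs at E15.5 and 10144 at E17.5 before thinning. Without thinning the *Lef1* shares of OG2 were 40.0% and 14.9%, with macrophages at 1.39% and 3.39%. *Inhba* was found in 19.0% of thinned OG2 cells at E15.5 (36.7% unthinned) and 4.41% at E17.5 (18.01% unthinned), against 0 of 348 and 0.161% of macrophages. Either *Lef1* or *Inhba* was found in 34.7% of thinned E15.5 OG2 cells and 7.09% of those at E17.5, and both in 5.99% and 0.766%. Most thinned OG2 cells therefore had no UMI of the genes that name them, at either stage.

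Genes of osteoblast commitment differed widely between the E15.5 and E17.5 OG2 cells. *Sp7*, the osteoblast transcription factor osterix, stood at 4.14 CPM in OG2 at E15.5 against 13.1 in the other labelled cells (0.317-fold), and at 172 CPM at E17.5 against 111 (1.54-fold). In suffixes 1, 2 and 3 *Sp7* in OG2 stood at 194, 171 and 164 CPM, above the other labelled cells in each. *Dlx5*, a homeobox factor of early osteoblasts, stood at 3.41 CPM against 10.8 at E15.5 and at 148 against 101 at E17.5. *Runx2*, the master factor of the lineage, stood at 30.7 CPM against 28.2 at E15.5 and at 116 against 81.6 at E17.5. *Alpl* stood at 9.02 CPM against 62.6 at E15.5 and at 286 against 250 at E17.5. *Msx1*, a homeobox factor of the cranial mesenchyme, stood at 2.19 CPM against 24.2 at E15.5 and at 87.3 against 108 at E17.5. *Runx2* was thus close to the other labelled cells in the E15.5 library while *Sp7*, *Dlx5*, *Msx1* and *Alpl* were below them.

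After thinning, at least 1 UMI of *Sp7*, *Dlx5* or *Alpl* was found in 3.93% of OG2 cells at E15.5 (2.38 to 6.06), where macrophages gave 2.87% (1.39 to 5.22), the other osteogenic clusters 37.4% and all other labelled cells 16.7%. Before thinning the UMIs were not spread evenly, since set 2 of the E15.5 sets described further on, with 99 cells, of which 73.7% were called G2/M and 9.09% had the highest doublet scores, held 12 of the 17 *Sp7*, 11 of the 14 *Dlx5* and 23 of the 37 *Alpl* UMIs. At E17.5 it was 77.4% of OG2 cells (73.6 to 80.9), with macrophages at 16.1% and the other osteogenic clusters at 77.9%. By these genes OG2 stood level with the other osteogenic clusters together at E17.5 and far below them at E15.5. The other osteogenic cells at E15.5 were not alike in this. Of the 114 with a *Lef1* or *Inhba* UMI, 14.9% had *Sp7*, *Dlx5* or *Alpl* (8.93 to 22.8), against 41.5% of the 634 without. A low share of these genes in cells with *Lef1* or *Inhba* was thus not particular to OG2.

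Of the 13 osteogenic transcription factors with enough UMIs at E15.5, 4 were higher and 3 lower in OG2 than in the other labelled cells. Over all 9191 genes tested there, 391 were higher (4.25%) and 724 lower (7.88%). The list's median ratio was 1.19 beside 1.04 for all genes. The 4 higher genes were *Twist2*, *Runx1*, *Zeb2* and *Runx3*, and the 3 lower ones *Dlx5*, *Msx1* and *Sp7*. At E17.5, 66 of 10349 genes were higher (0.638%) and 652 lower (6.3%), and 0 of 14 factors passed the limit in either direction (median 1.05, beside 0.971 for all genes). Bone matrix and mineralization genes stood low in OG2 against the other labelled cells of both libraries. The lower genes were 17 of 21 tested at E15.5 (median 0.173) and 9 of 21 at E17.5 (median 0.513). This was not particular to OG2 at E15.5. Summed over the list, OG2 stood at 11151.5 CPM there, close to PO1 (11010), PO2 (10852) and OG1 (10055). OG3 stood at 16598 CPM and OG4 at 183141. *Ibsp*, which encodes bone sialoprotein, stood at 91.4 CPM against 1739.5 at E15.5 and at 154 against 1820.3 at E17.5. *Smpd3*, a sphingomyelinase needed for mineralization, stood at 0.975 CPM against 69.0 at E15.5 and at 86.9 against 158 at E17.5. The 2 matrix-list genes higher in OG2 at E15.5 were *Pth1r*, the parathyroid hormone receptor (331 CPM against 93.7), and *Dkk1*, a secreted Wnt inhibitor (31.7 against 11.8). Of the genes listed for the osteoprogenitor cluster OG1, 2 of 5 tested were lower at E15.5, as was 1 of 7 at E17.5. *Npnt*, a matrix protein on that list that the study names for progenitors of the frontal suture, stood at 6.34 CPM against 15.2 at E15.5 and 255 against 138 at E17.5. The OG3 genes *Mmp13* and *Podnl1* had 0 of 2 genes tested at E15.5, and 1 of 2 was lower at E17.5.

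Genes that stood high in OG2 at E15.5 included *Crabp1*, *Twist2*, *Stmn2* and *Sfrp5*, of which *Stmn2* and *Sfrp5* were at or near 0 at E17.5. *Sfrp5*, a secreted Wnt antagonist, had the largest ratio, with 125 CPM against 8.56 (14.6-fold). *Stmn2*, a microtubule regulator best known from neurons, stood at 668 CPM against 56.4, and *Cav1*, the caveolin of membrane caveolae, at 287 against 30.6. *Nrn1*, a neurite growth factor, stood at 110 CPM against 9.06. *Twist2*, a dermal bHLH factor that holds back osteoblast differentiation, stood at 638 CPM against 140. At E17.5 OG2 held 0 UMIs of *Sfrp5* and *Nrn1*, and *Stmn2* stood at 3.40 CPM, *Cav1* at 6.56 and *Twist2* at 24.7. A UMI of *Crabp1* together with a UMI of *Twist2* was found in 74.0% of thinned OG2 cells at E15.5 and in 0.383% at E17.5, with macrophages at 0.287% and 0 of 620.

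These genes were not particular to OG2 at E15.5. *Sfrp5* was higher in PO2 (169 CPM) than in OG2 and stood at 102 CPM in PO1, against 3.12 in OG1. *Twist2* stood at 593 CPM in PO2, 576 in PO1 and 225 in OG1. Against the other osteogenic clusters together, 197 of 9143 genes were higher in OG2 (2.15%) and 477 lower (5.22%). Those with the largest ratios were the agouti gene *a*, which encodes a melanocortin antagonist of skin, *Kcnk2*, a background potassium channel (71.4 against 18.7), *Stmn2* (668 against 179), *Ppp1r14a*, *Crabp1* (1742 against 536), *Ch25h*, *Sfrp5*, *Cav1*, *Mmp11* and *Lmcd1*. The lowest against all other labelled cells, after *Ibsp*, were *Rspo2*, a Wnt-enhancing secreted protein (2.44 CPM against 32.0), and *Bmp3*, a BMP family ligand (4.39 against 53.7), followed by *Luzp2*, *Lypd2*, *Bnc2*, *Col14a1* and *Fmo1*. *Bnc2* and *Col14a1*, both expressed in fibroblasts, stood at 2.93 CPM against 31.8 and at 26.8 against 289.

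Genes that respond to canonical Wnt signals stood high in E15.5 OG2 against the other labelled cells. Of 17 listed, 12 had enough UMIs, 9 were higher and 1 was lower, with a median of 3.22 beside 1.04 for all genes. The shares of all genes called there were 4.25% higher and 7.88% lower. Against the other osteogenic clusters 3 of 13 tested were higher and 2 lower. Summed over the list, OG2 stood at 1078 CPM, OG4 at 1058, PO2 at 898 and PO1 at 887. *Lef1* is itself one of the 9. *Sp5*, whose promoter is printed above, stood at 27.1 CPM against 2.38 (11.4-fold, 8.63 to 14.97). The feedback inhibitors *Nkd2* and *Nkd1* stood at 116 CPM against 14.6 and 193 against 41.7, and *Axin2*, part of the β-catenin destruction complex, at 70.7 against 18.8. *Wif1*, which binds Wnt ligands outside the cell, stood at 255 CPM against 47.7. The lower gene was *Bambi*, a decoy receptor of the TGF-β family (15.6 CPM against 61.2). At E17.5, 2 of 12 tested were higher, *Tcf7* (79.6 CPM against 39.1) and *Ccnd1*, which encodes cyclin D1 (174 against 83.0). The shares of all genes called at E17.5 were 0.638% higher and 6.3% lower. The E17.5 median was 1.15, 1 gene was lower, and *Sp5* had 0 UMIs in OG2. In the other labelled cells *Sp5* also differed, 50.4-fold higher at E15.5 than at E17.5. *Axin2* stood at 8.95 CPM against 8.84 there. *Tcf7* went the other way among osteogenic cells at E15.5, at 8.04 CPM in OG2 against 23.4 in the other osteogenic clusters, and at E17.5 it stood highest in OG4 (184 CPM) ahead of OG2.

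The Wnt ligands, receptors and secreted modulators were mostly low against the other labelled cells. Of 42 listed, 30 were tested at E15.5, with 3 higher and 13 lower (median 0.531), and 32 at E17.5, with 1 higher and 10 lower (median 0.705). Among all genes tested, the E15.5 shares were 4.25% (higher) and 7.88% (lower), and the E17.5 shares 0.638% (higher) and 6.3% (lower). *Rspo1*, a secreted enhancer of Wnt signalling, was called higher in both libraries, at 59.7 CPM against 12.8 at E15.5 and 57.8 against 25.6 at E17.5. *Sfrp2*, another secreted Wnt modulator, stood at 477 CPM against 2163 at E15.5 and 399.6 against 2135 at E17.5. *Rspo1* and *Sfrp2* thus kept their direction in both libraries.

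In the activin group, *Inhba* and the follistatin-like inhibitor *Fstl3* (9.02 CPM against 4.20) were the 2 of 11 tested genes higher in OG2 at E15.5, and 1 was lower (median 0.774). The lower gene was *Fst*, follistatin, at 13.9 CPM against 30.9. At E17.5, 0 of 11 were higher and 2 were lower (median 0.882). *Fst* stood at 0.883 CPM in OG2 against 5.40 there. In the E15.5 library 4.25% of all genes tested were called higher and 7.88% lower. The E17.5 library had 0.638% called higher and 6.3% lower. *Inhba* is itself a label gene of OG2. *Inhbb*, the βB subunit, stood at 12.9 CPM against 7.01 at E15.5 and at 1.13 against 5.89 at E17.5, and *Tgfbr3*, the co-receptor betaglycan, at 55.3 against 33.3 and at 5.04 against 16.3.

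Of the FGF signalling genes, 6 of 13 tested were higher and 2 lower at E15.5 (median 1.98), beside 4.25% and 7.88% of all genes, and at E17.5, 0 of 14 were higher and 3 lower (median 0.916), beside 0.638% and 6.3%. Against the other osteogenic clusters 1 of 15 was higher and 0 lower at E15.5, and the summed list stood at 638 CPM in PO2, above 600.1 in OG2. *Etv5*, an ETS factor induced by FGF, stood at 20.7 CPM against 6.02 at E15.5. *Dusp6*, an ERK phosphatase, stood at 38.5 CPM against 7.93, *Spry1*, a feedback inhibitor, at 35.6 against 10.3, and the receptor *Fgfr1* at 269 against 133. At E17.5 *Fgfr1* stood at 132 CPM against 137. *Fgfr2*, another receptor, stood above the other labelled cells in both libraries without reaching 2-fold (36.1 CPM against 18.2, then 117 against 74.8).

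BMP genes stood a little low, with 1 of 20 tested higher and 7 lower at E15.5 (median 0.786) and 0 of 21 higher and 6 lower at E17.5 (median 0.778). The shares over all genes were 4.25% higher and 7.88% lower in the E15.5 library and 0.638% and 6.3% in the E17.5 library, so the BMP genes called higher lay near that share. Among Hedgehog genes, 1 of 10 tested was higher and 0 lower at E15.5 (median 1.16), the receptor and target *Ptch1* (54.1 CPM against 25.2), and 0 of 11 were higher and 1 lower at E17.5 (median 0.789). Of 14 genes mutated in coronal synostosis, 3 were higher and 3 lower at E15.5 (median 1.05) and 0 higher and 1 lower at E17.5 (median 0.955). *Twist1*, mutated in Saethre-Chotzen syndrome, stood at 61.4 CPM against 31.9 at E15.5 and 88.1 against 94.7 at E17.5. Its partner *Tcf12* stood at 127 CPM against 76.6 and at 84.7 against 71.1. Craniofacial patterning factors had 2 of 18 higher and 9 lower at E15.5 (median 0.606) and 0 of 24 higher and 8 lower at E17.5 (median 0.663).

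Genes of the upper dermis, which holds *Crabp1* and *Twist2* cells in skin, had 6 of 12 tested higher and 3 lower at E15.5 (median 2.22) and 1 of 11 higher and 5 lower at E17.5 (median 0.519). *Trps1*, a zinc finger factor of hair follicle mesenchyme, stood at 110 CPM against 21.8 at E15.5 and 19.4 against 25.02 at E17.5. The 3 lower genes at E15.5 were *Dkk2* (25.4 CPM against 162), *Dpp4* (22.7 against 129) and *Sfrp2*. This list shares *Axin2* and *Apcdd1* with the Wnt response list and *Trps1* with that of dermal condensates. Its summed level in E15.5 OG2 was 3410 CPM, below LIG (6055), EC4 (4088) and EC3 (3984). OG2 stood above the other osteogenic clusters, of which PO2 (2935 CPM) and PO1 (2819 CPM) came nearest. A high level of upper dermis genes was thus not particular to OG2 in that library. Dermal condensate and papilla genes had 3 of 11 higher and 2 lower at E15.5 (median 0.778) and 0 of 11 higher and 5 lower at E17.5 (median 0.527). Lower dermis and ectocranial genes were lower in 9 of 12 tested at E15.5, then 10 of 11 at E17.5 (medians 0.156 and 0.109). EC4 and LIG genes were lower in 7 of 11 and 8 of 12, with 0 higher (medians 0.416 and 0.410). Meningeal genes were lower in 6 of 11 and 12 of 14, with 1 and 0 higher (medians 0.242 and 0.181). Over every gene tested in the E15.5 library, 4.25% were called higher and 7.88% lower. For the E17.5 library these background shares were 0.638% (higher) and 6.3% (lower).

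**Figure D2:**
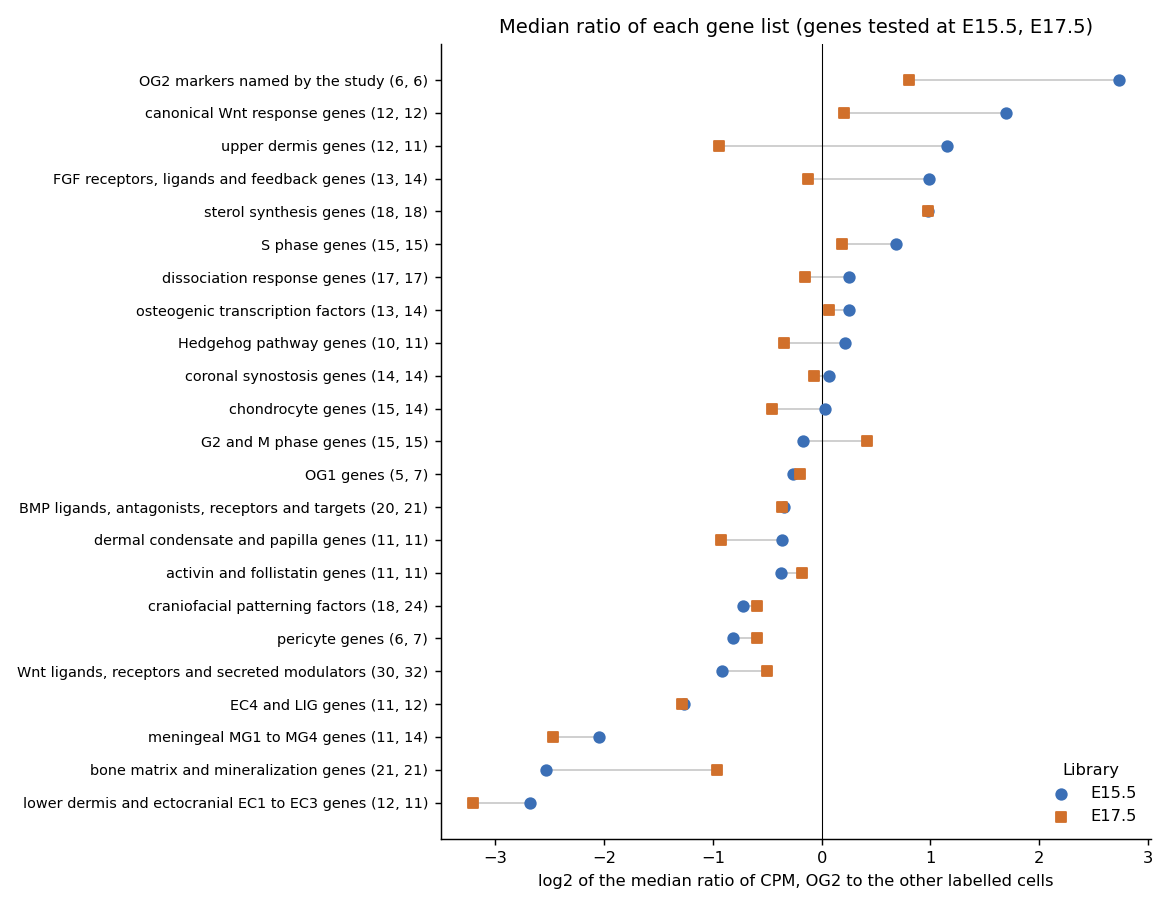
Median ratio of OG2 to the other labelled cells (horizontal axis, log2 of the ratio) for each gene list with at least 5 genes tested in each library (vertical axis), with the numbers tested at E15.5 and E17.5 in brackets. The Wnt response list sits at ratios of 3.22 (E15.5) and 1.15 (E17.5), and the FGF list at 1.98 and 0.916.

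The counts for markers of other cell types stand beside a low share of all genes called higher, 4.25% at E15.5 and 0.638% in E17.5 cells. The shares of all genes called lower were 7.88% and 6.3%. Chondrocyte genes had 0 of 15 higher and 4 lower at E15.5 (median 1.02) and 0 of 14 higher and 5 lower at E17.5 (median 0.729). Myeloid genes had 0 of 4 and 0 of 10 tested genes called (medians 0.757 and 0.930), osteoclast genes 1 of 2 and 0 of 3 lower (0.601 and 0.842), and mast cell and lymphocyte genes 0 of 3 in each (0.741 and 0.969). Endothelial genes had 2 of 3 tested higher and 1 lower at E15.5 and 0 of 3 higher and 2 lower at E17.5 (medians 2.28 and 0.287). The higher genes were *Ecscr* (20.7 CPM against 3.77) and *Egfl7* (19.5 against 8.56), while the 12 endothelial genes summed to 60.2 CPM in OG2 and 96.3 in the other labelled cells at E15.5. The endothelial cadherin *Cdh5* stood at 0.975 CPM in OG2 against 8.18 at E15.5, and the VEGF receptor *Kdr* had 0 UMIs. Pericyte genes had 3 of 6 and 2 of 7 lower (medians 0.568 and 0.664), glia and neural crest genes 1 of 1 lower in each (0.409 and 0.175), and skeletal muscle genes 3 of 4 and 0 of 2 lower (0.258 and 0.934). Of the neuron list only *Stmn2* was tested at E15.5 (11.9-fold), 6 of 9 genes of that list had 0 UMIs in OG2, and 0 of 2 were higher and 1 was lower at E17.5 (median 0.710). Keratinocyte genes had 0 of 4 and 0 of 3 called (medians 1.27 and 0.855), and 0 melanocyte genes had enough UMIs. Dissociation response genes had 0 of 17 called in each library (medians 1.19 and 0.900), and nuclear-retained RNAs 2 of 4 and 1 of 4 lower (medians 0.540 and 0.635), with *Malat1*, the most abundant, 0.605-fold and 0.578-fold.

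Of 8848 genes tested in both libraries, 21 (0.237%) were higher in OG2 of both, 310 (3.5%) were lower in both, and 19 (0.215%) passed the limit in opposite directions. Among those genes 290 were higher at E15.5 and 43 at E17.5, so the shared 21 were 7.24% of the E15.5 set and 48.8% of the E17.5 set. The shared lower genes were 46.8% of the 662 lower at E15.5 and 57.4% of the 540 lower at E17.5. Each library's own values came from different cells, and the authors assigned the label on both libraries together. The 12 genes with the largest smaller ratio were *Crabp1*, *Idi1*, *Hmgb3*, *Cd24a*, *Elovl6*, *Mvd*, *Rspo1*, *Ccnb2*, *Col26a1*, *Fdps*, *Ddx39* and *Ccnd1*. *Idi1*, *Mvd* and *Fdps* encode enzymes of the mevalonate pathway, and *Elovl6* an enzyme that lengthens fatty acids. *Cd24a*, a surface sialoglycoprotein, stood at 248 CPM against 69.4 at E15.5 and 110 against 47.8 at E17.5. *Hmgb3*, a chromatin protein of progenitor cells, stood at 170 CPM against 51.0 and 162 against 69.6.

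**Figure D3:**
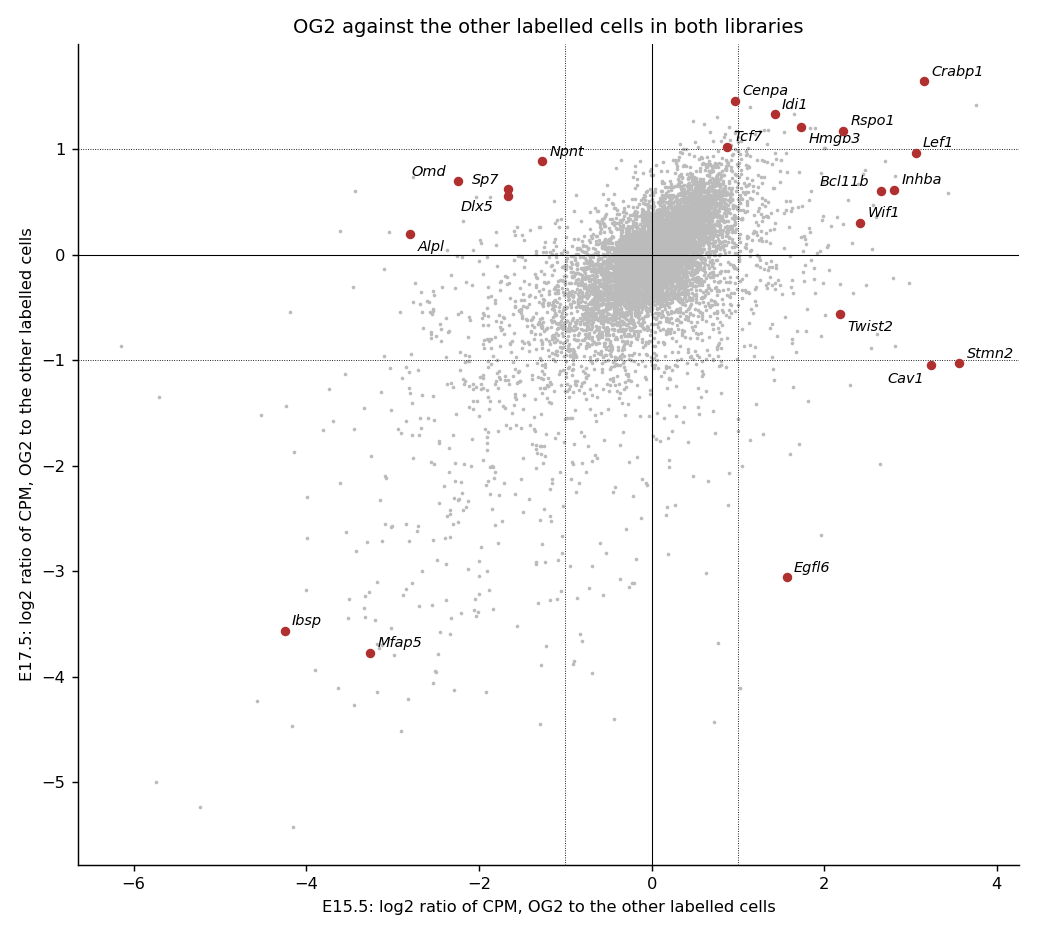
Ratio of OG2 to the other labelled cells at E15.5 (horizontal axis, log2 of the ratio) against that at E17.5 (vertical axis, log2 of the ratio), 1 point for each gene tested in both libraries, with selected genes named and dotted lines at 2-fold. *Crabp1* and *Idi1* lie past 2-fold on both axes, while *Stmn2* (ratios 11.9 and 0.490) lies high on the first and low on the second.

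The enzymes of sterol synthesis were the group that OG2 of both libraries shared most evenly. After *Idi1*, *Mvd* and *Fdps* were seen among the leading genes, a list of 18 enzymes from *Acat2* to *Dhcr7* was drawn up, so its counts are descriptive. All 18 had a ratio to the other labelled cells above 1 in each library, 8 were called higher in each, and the medians were 1.97 in both beside 1.04 and 0.971 for all genes. *Idi1*, isopentenyl-diphosphate isomerase, stood at 88.7 CPM against 33.1 at E15.5 (2.68-fold, 2.39 to 3.01) and 91.4 against 36.3 at E17.5 (2.52-fold, 2.32 to 2.73). In suffixes 1, 2 and 3 *Idi1* in OG2 stood at 138, 82.2 and 84.9 CPM against 48.3, 34.4 and 33.3. *Mvd*, mevalonate diphosphate decarboxylase, stood at 46.8 CPM against 18.4 and 55.1 against 24.3. *Hmgcs1*, HMG-CoA synthase, stood at 191 CPM against 102 and 164 against 76.9. Summed over the 18 enzymes, OG2 stood at 1271 CPM against 664 at E15.5 and 1504 against 759.9 at E17.5. OG2 had the highest sum of the 15 clusters in each library, followed by PO2 at E15.5 (1076 CPM) and OG4 at E17.5 (1389 CPM). In cells that the authors called G1, 18 and 17 of the enzymes stood above 1, with medians of 2.42 and 2.65. The G1 cells held no PO2 cells and almost no PO1 cells (0% of PO1 at E15.5 and 0.551% at E17.5). The other cells compared were therefore not the same mix of clusters.

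**Figure D4:**
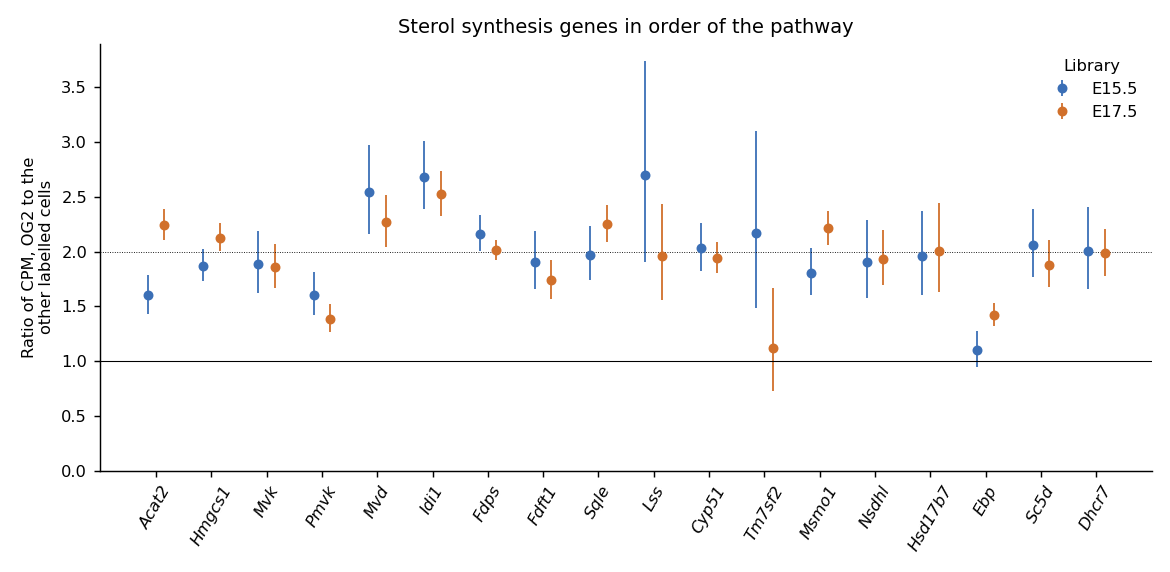
Ratio of CPM in OG2 to that in the other labelled cells (vertical axis) for the 18 sterol synthesis genes in order of the pathway (horizontal axis) at E15.5 and E17.5, with exact 95% intervals of the ratio as bars, a solid line at 1 and a dotted line at 2. The ratio is above 1 for 18 of 18 genes in each library.

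The genes that stood highest in OG2 at E17.5 were cell division genes beside *Crabp1* and the sterol enzymes. *Cenpa*, the centromeric histone, stood at 315 CPM against 114 and *Ccnb2*, which encodes cyclin B2, at 142 against 53.7. *Knstrn*, *Hist1h2bc* and *Cdkn3* were in the same leading 12. By the authors' phase calls 39.1% of E17.5 OG2 cells were in G2/M and 27.2% in S, against 13.2% and 19.1% of all others labelled. In the E15.5 library 19.9% were in G2/M and 33.8% in S, against 9.66% and 20.4%. Among G2 and M phase genes 1 of 15 was higher and 3 lower at E15.5 (median 0.888) and 1 of 15 higher at E17.5 (median 1.34). Compared with the other osteogenic clusters, 0 of these 15 were higher and 12 lower at E15.5, and 1 higher and 2 lower at E17.5. For that comparison, all genes gave 2.15% higher and 5.22% lower in E15.5 cells, then 0.147% and 2.26% in E17.5 cells. Summed over these G2 and M genes, PO2 stood at 10257 CPM and PO1 at 4305 in the E15.5 library, against 744 in OG2. OG3 stood at 1027 CPM, OG1 at 773 and OG4 at 352. Among S phase genes, set against the other labelled cells, 4 of 15 were higher and 1 lower at E15.5 (median 1.60). At E17.5, 0 were higher and 1 lower (median 1.14). Against the other labelled cells, 4.25% of all genes were called higher in the E15.5 library and 7.88% lower. For E17.5 cells these shares were 0.638% and 6.3%. Phase was called by the authors on these cells, and its part in the other values was not tested beyond the G1 values given here. In G1 cells alone 347 genes were higher at E15.5, 226 of them among the 391, and 88 at E17.5, 32 of them among the 66. Against the other osteogenic clusters 15 of 10184 genes were higher at E17.5 (0.147%) and 230 lower (2.26%). The leading 10 of these were *Crabp1* (88.5 CPM against 16.01), *Cenpa*, *Ccnb2*, *Rangrf*, *Knstrn*, *Ccnd1* (174 against 91.5), *Hist1h2bc*, *Mvd*, *Nop2* and *Pus7*. The lowest at E17.5 against all other labelled cells were fibroblast genes of the outer layers, *Scara5* (2.65 CPM against 49.1), *Agtr2* (8.20 against 121), *Osr1*, *Wnt2*, *Clec3b*, *Mfap5*, *Ly6a* and *Itih5*.

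Set directly against each other, OG2 at E15.5 and at E17.5 differed at least 2-fold in 1104 genes higher at E15.5 (12.4%) and 658 higher at E17.5 (7.38%) of 8915 tested. Relative to the change of the other labelled cells between the libraries, 456 of the 1104 and 186 of the 658 were still past 2-fold. *Sfrp5*, with 125 CPM at E15.5 and 0 UMIs at E17.5, was at least 331-fold higher at E15.5, taking 3 UMIs over the OG2 cells as the floor. *Nrn1* and *Masp1*, a complement protease, were at least 292-fold and 98.6-fold higher by the same floor. The other labelled cells differed too, 362-fold for *Sfrp5*, 69.7-fold for *Nrn1* and 251-fold for *Masp1*. *Lix1* stood at 157 CPM at E15.5 and 0.378 at E17.5 (3 UMIs, ratio 415, 141 to 2017), and the other labelled cells fell by 24.9-fold. *Twist2* was 25.8-fold higher at E15.5 in OG2 and 3.83-fold in the other labelled cells. *Lef1* was 6.32-fold higher at E15.5 in OG2 (4.99 to 8.08) and 1.48-fold in the other labelled cells, and *Inhba* 5.59-fold (4.497 to 6.996) and 1.22-fold.

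In the other direction, *Sp7* was 41.4-fold higher in E17.5 OG2 than in E15.5 OG2 and 8.51-fold higher in the other labelled cells. *Dlx5* was 43.2-fold higher in OG2 and 9.28-fold in the others, *Alpl* 31.7-fold and 3.99-fold, and *Smpd3* 89.1-fold and 2.29-fold. *Dlx6*, a homeobox partner of *Dlx5*, had 1 UMI in E15.5 OG2 and 346 at E17.5. *Tcf7* was 9.89-fold higher at E17.5 in OG2 and 8.89-fold in the others. Several genes with the largest ratios also differed widely outside OG2. *Igf2*, a fetal growth factor, stood at 16.8 CPM in E15.5 OG2 and 1663 in E17.5 OG2 (98.9-fold), and was 42.1-fold higher in the other labelled cells. *Srp54c* was 238-fold higher in OG2 and 166-fold in the others, and *Tnn*, the matrix protein tenascin-W, 108-fold and 44.5-fold. *Hgs* and *Fdx1l* had 0 UMIs in E15.5 OG2, at least 36.6-fold and 86.4-fold below E17.5 by the 3-UMI floor, and were 1176-fold and 558-fold higher at E17.5 in the other labelled cells. *Atcayos* ran the opposite way in both sets, with 46.3 CPM and 0 UMIs in OG2 and a 625-fold difference elsewhere. The E15.5 matrix listed 31053 genes and the E17.5 matrix 27998, and the part of the gene models or of the counting in these values was not tested.

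The whole profiles were compared over 12150 genes, as the correlation of log2 ratios of a cluster to the other labelled cells of its library. Genes are not independent replicates, and OG2 of both stages was called by the authors on a joint embedding. OG2 at E15.5 and OG2 at E17.5 had a Pearson r of 0.561 (Spearman 0.540), ahead of E15.5 OG2 with E17.5 PO1 (0.429), OG1 (0.405) and OG3 (0.371). E17.5 OG2 stood nearly as close to E15.5 OG1 (0.528) and OG3 (0.525). Over the 7486 genes with at least 500 UMIs the order turned, with E17.5 OG2 nearer to E15.5 OG1 (0.668) and OG3 (0.656) than to E15.5 OG2 (0.652) by Pearson r. By Spearman's rho it did not turn (0.607, 0.544 and 0.636). The other clusters correlated with themselves across the libraries from 0.276 for MG1 to 0.774 for OG4.

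OG2 was mixed within each library. Clustering the OG2 cells alone gave 6 sets at E15.5 and 7 at E17.5, whose leading genes define them and are no finding. At E15.5, set 1, the largest, of 130 cells, was led by *Aqp1*, *Apela* and *Kcnk2* and held the highest *Lef1* level (147 CPM, 123 to 175) and *Stmn2* at 1600 CPM. Set 2, of 99 cells, was led by *Hmmr* and *Cdc20* and was 73.7% G2/M, and set 4, of 70 cells led by *Hist1h2ap* and *Cdc45* among other genes, was 98.6% S phase. Set 3, of 99 cells, was led by *Gas6*, *Hhip* and *Vcan*, and in it *Lef1* stood at 12.4 CPM (6.40 to 21.6), *Inhba* at 15.49 and *Dlk1* at 3283. Set 3, 20.3% of the E15.5 OG2 cells, thus had the label genes near the level of the other labelled cells. Set 5, of 56 cells, was led by *Sfrp5* and *Cpxm2*. Set 6, of 34 cells, was led by *Wnt2*, *Nov* and *Sema3c*, held *Crabp1* at 624 CPM, and had 44.1% of its cells among the highest doublet scores, against 5.33% of all E15.5 OG2 cells. *Sp7* stood between 0 and 14.1 CPM in every E15.5 set.

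At E17.5, *Sp7* stood between 58.3 and 248 CPM in the 7 sets. Sets 1 and 7, of 142 and 33 cells, were 90.1% and 100% G2/M, and set 3, of 82 cells led by *Cdc6*, was 100% S phase. Set 2, of 106 cells led by *Limk2*, held the highest *Lef1* level (21.8 CPM, 14.8 to 31.0). Set 4, of 59 cells, was led by *Smpd3* (367 CPM against 43.4 in the rest of OG2), *Dkk1*, *Ifitm5* and *Ihh*. Set 5, of 58 cells, was led by *Epyc*, *Matn4*, *Angptl1* and *Dcn* and held *Crabp1* at 371 CPM against 54.3 in the rest, with *Sp7* at 58.3 CPM, *Lef1* at 1.17 CPM (1 UMI) and *Tcf7* at 5.83. In set 5, 17.2% of cells were among the highest doublet scores. The *Crabp1* level of E17.5 OG2 was thus uneven, from 32.6 CPM in set 7 to 371 in set 5, while set 5 had the lowest *Lef1*, *Sp7* and *Tcf7*. Set 6, of 42 cells, was led by the immediate early genes *Btg2*, *Ier2* and *Fosb*.

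**Figure D5:**
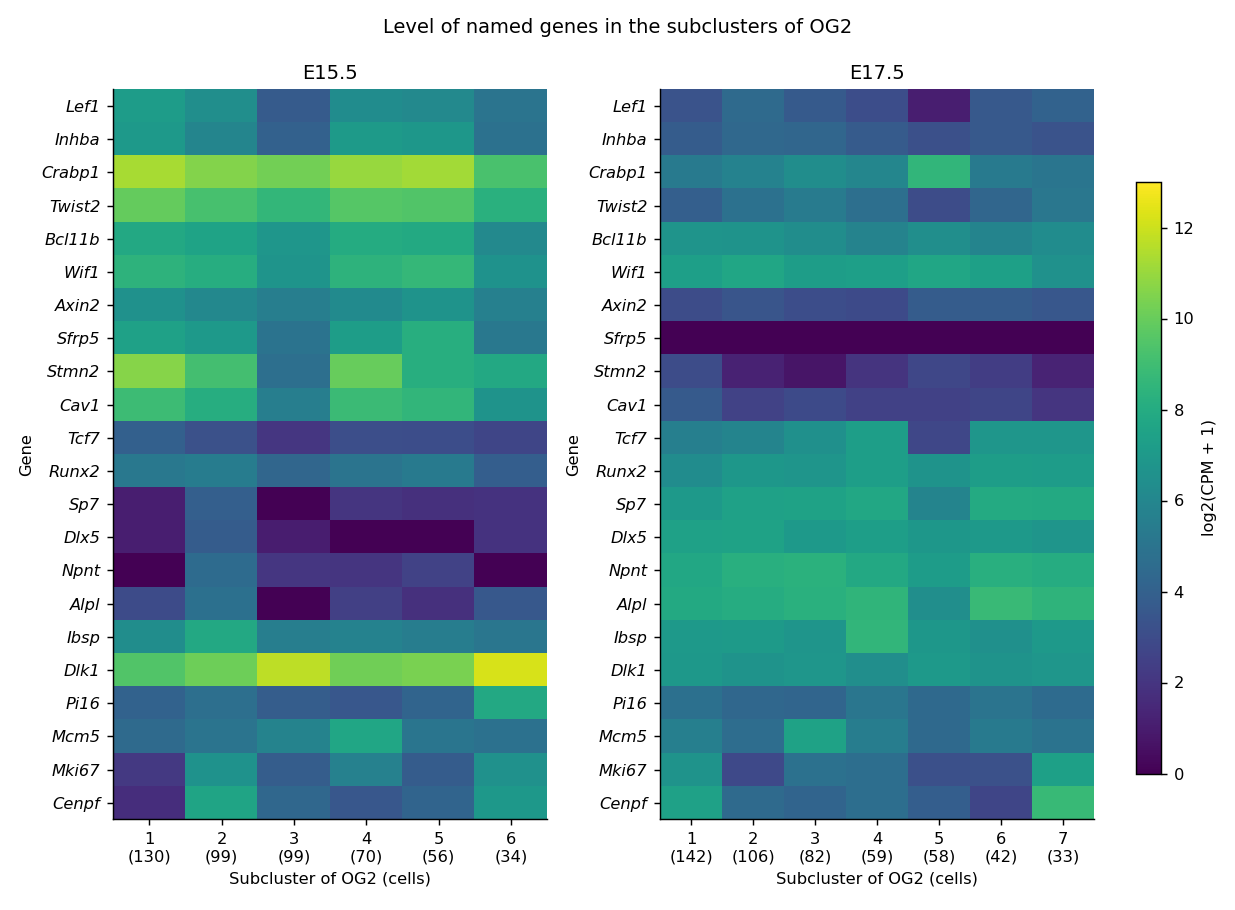
Levels (colour, log2 of CPM + 1) of selected genes (vertical axis) in the sets found by clustering the OG2 cells of each library alone (horizontal axis, cells per set in brackets). At E15.5 *Lef1* ranges from 12.4 CPM in set 3 to 147 in set 1, and at E17.5 *Crabp1* from 32.6 CPM in set 7 to 371 in set 5.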

How the data were processed

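Single-cell RNA-seq (10x Chromium, 3′ v2) of coronal sutures was deposited as 1 count matrix per stage. The authors made these UMI counts with Cell Ranger on mm10. Version 3.1.0 is given in the header for E15.5, which is later than the version that the paper names. Per the file headers, the authors' cell table also gives UMI counts, the percent of mitochondrial and haemoglobin UMIs, cell cycle scores, phase calls and the cluster of each cell. According to the paper, the clusters came from Seurat 3.2.0 after integration of both stages. It kept cells with 1000 or more UMIs and genes and at most 7.5% mitochondrial and 3% haemoglobin content. Totals were taken from the matrices. All 488 and 522 OG2 cells were found by barcode, 5335 of 5340 labelled E15.5 cells were found, and 0 columns of values were left unassigned to a sample.

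UMIs were summed per cluster and library (Python 3.11.15, scanpy 1.11.5, scipy 1.17.1) and given as CPM with exact 95% Poisson intervals. Intervals of ratios were exact conditional ones, and shares had Clopper-Pearson intervals. No count model or test was used, since each stage had 1 matrix and the labels tie no E17.5 barcode suffix to a batch or litter. Reads of near-identical gene copies could be split by the counting. Doublet scores came from Scrublet in scanpy with an expected doublet rate of 0.06. By the threshold it set, 415 of 8210 E15.5 cells were doublets but only 41 of 8767 at E17.5, so the cells past the 94th percentile of the score were used instead. OG2 cells were clustered again with Leiden on 1000 variable genes, 20 principal components and 15 neighbours at resolution 0.5. The steps were tested on simulated data with 200 changed genes.

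Members, the 33 gene lists and the rules were chosen with earlier results of these data known. Genes named were members of the lists, the 12 highest and 8 lowest against the other labelled cells and the 10 highest against the osteogenic clusters in each library, the 12 highest in both, the 8 highest in each stage (each in at least 20% of cells), and the leading 6 of each set. The Y-linked, mitochondrial, haemoglobin and unnamed gene models were left out. The sterol list was chosen after its values were seen. Some genes that these rules name are not reported here. Promoter windows came from RefSeq GRCm38.p6 and gene positions from GENCODE. Alternatives covered the UMI minimum, the fold limit, weighting, thinning, doublet scores, cells outside the limits, barcode suffixes, phase and the clustering settings.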

Additional observations from a re-analysis of the deposited data

Results flagged for a closer look

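Between the stages, 19 genes passed 2-fold in opposite directions in OG2 against the other labelled cells (0.215% of 8848), all of them higher at E15.5 and lower at E17.5, and these differences were not tested. Beside the listed genes below they included *Cav1*, *Egfl6*, a secreted protein with EGF repeats (897 CPM against 303 at E15.5 and 6.68 against 55.6 at E17.5), *Penk*, which encodes enkephalin, *Nt5e*, which makes adenosine, *Ch25h*, *Mt2* and *Sema3f*.

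Several listed osteoblast genes lay on the low side at E15.5 and the high side at E17.5, although 9 of 21 bone matrix and mineralization genes tested were lower at E17.5 (median 0.513). The ratio of OG2 to the other labelled cells was 0.317 then 1.54 for *Sp7*, 0.315 then 1.47 for *Dlx5*, 0.144 then 1.14 for *Alpl*, 0.416 then 1.85 for *Npnt* and 0.212 then 1.62 for *Omd*, an osteoblast proteoglycan. It was 0.147 then 1.66 for *Bmper*, 0.255 then 1.08 for *Bambi*, 0.339 then 1.20 for *Sox6* and 0.286 then 1.07 for *Ndufa4l2*.

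For a second set of listed genes the order was the opposite. The ratio was 11.9 then 0.490 for *Stmn2*, 4.55 then 0.676 for *Twist2*, 5.03 then 0.776 for *Trps1* and 2.04 then 0.0580 for *Lgr5*. It was 2.29 then 0.7997 for *Spred1*, an inhibitor of ERK signalling, 1.84 then 0.193 for *Inhbb*, 1.66 then 0.310 for *Tgfbr3*, 1.55 then 0.123 for *Tbx18*, 1.21 then 0.421 for *Wnt5a* and 1.16 then 0.442 for *Gas1*, a Hedgehog co-receptor. None of these differences was tested.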

How the results depend on the processing

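No paired analysis was possible because each stage has 1 library and no replicate numbers are shared. In each list below, counts of genes follow the order E15.5 then E17.5, first against the other labelled cells (391 and 66 higher, 724 and 652 lower) and then against the osteogenic clusters (197 and 15 higher, 477 and 230 lower), and last between the stages (1104 and 658). A fold limit of 1.5 gave 1217 and 518 higher and 1369 and 1456 lower, 719 and 196 higher and 931 and 704 lower, and 1962 and 1443. A limit of 3 gave 165 and 4 higher and 376 and 303 lower, 27 and 1 higher and 260 and 72 lower, and 594 and 308. With 1 UMI as the minimum these were 1861 and 871, 2682 and 2536, 1587 and 1011, 2400 and 1374, and 3822 and 2090. With 20 UMIs, 1023 genes were lower at E17.5, and against the osteogenic clusters 319 and 40 were higher and 761 and 364 lower. Thinning to 3000 UMIs left fewer genes to test, with 260 higher at E15.5, 436 and 298 lower, 256 and 77 lower against the osteogenic clusters, and 636 and 436 between the stages. Equal weight for clusters gave 105 higher at E17.5, and the mean over cells 114, with 11 of the listed genes higher in place of 5. Between the stages 555 and 241 genes differed once each library was set against its own other labelled cells. Suffix 1 alone, with 75 OG2 cells, gave 113 higher and 289 lower, 40 and 82 against the osteogenic clusters, 523 and 363 between the stages and 10 and 44 listed genes. Suffix 2 gave 411 lower and 7 higher and 153 lower against the osteogenic clusters, and suffix 3 gave 394 and 131 lower. OG2 made up 6.08% of suffix 1 and 8.66% of suffix 2, and 5.94% and 5.95% of all cells kept, and 37.9% and 15.2% of osteogenic cells. G1 cells alone, an alternative added after the data were seen, gave 414 lower at E17.5, 462 and 27 higher against the osteogenic clusters and 8 listed genes higher. Unthinned shares were 40.0% and 14.9% for *Lef1* and 36.7% and 18.01% for *Inhba*, and at 2000 UMIs 14.4% and 1.92% for *Lef1* and 2.30% for *Inhba* at E17.5. Resolutions of 0.8 and 0.3 gave 10 sets at E15.5 and 4 at E17.5. The cause of these changes was not tested, except that fewer cells or UMIs leave fewer genes to test. The other 84 values compared stayed within their limits. For single named genes 176 values lay within the counting interval of the reported one and 200 outside it, and no gene past the 2-fold limit changed sides. Of the 18 sterol genes 17 or 18 stood above 1 under every setting run. Depth limits the single-cell shares of *Lef1* and *Inhba*, and 1 library per stage leaves every difference between stages without a test.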

Other observations

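Among single patterning factors chosen after their values were seen, *Meis1*, a homeobox cofactor, stood at E15.5 at 31.7 CPM in OG2 against 10.4 in the other labelled cells. Its E17.5 levels were 8.20 and 8.28 CPM. *Zic1* stood at 71.9 CPM against 39.3 at E15.5 and 48.9 against 84.3 at E17.5. *Hand2*, a bHLH factor of ventral arch mesenchyme, stood at 10.7 CPM against 0.764 at E15.5 and had 0 UMIs in every labelled cell at E17.5. *Bcl11b*, a zinc finger repressor on the study's own list for OG2, stood at 184 CPM against 29.2 at E15.5 and 84.6 against 55.8 at E17.5, and 4 of the 6 genes on that list were called higher at E15.5, as were 2 at E17.5, which is no independent evidence, since the study chose that list on these cells. *Wnt6*, a Wnt ligand of skin, stood at 15.1 CPM against 2.49 at E15.5, and *Edn3*, which encodes endothelin 3, at 32.7 against 9.71.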
